A study of Mus musculus with 6 samples.

Results

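Chemokines are small secreted proteins that direct the movement of cells, and their receptors are G-protein-coupled proteins on the surface of the responding cell. Of the 22609 genes counted in primary mouse adipocytes, 59 were chemokine or chemokine receptor genes. They were chosen by symbol alone, as every gene named Ccl, Cxcl, Ccr, Cxcr or Ccrl with a number, together with Cx3cl1, Cx3cr1, Xcl1 and Xcr1. These comprise 38 ligand genes, of which 23 are CC and 13 are CXC ligands, and 21 receptor genes. Ligands are named after the spacing of their first cysteines. In general, CC ligands attract monocytes, eosinophils and lymphocytes, whereas CXC ligands that carry an ELR motif attract neutrophils and CXC ligands without it act on lymphocytes, on stem cells or on tissue growth. In white fat, chemokines are best known for the recruitment of macrophages and other leukocytes, and both adipocytes and the fibroblast-like stromal cells around them make these ligands.

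The cells were isolated as the stromal vascular fraction of inguinal fat from male C57BL6 mice, aged 3 weeks in the labels, and were then differentiated into adipocytes in culture. The labels give 3 control samples, described as carrying a control vector, and 3 miR182 samples, described as overexpressing miR182. The study's methods describe the same treatments as a mimic control and a miR-182-5p mimic delivered with a lipid reagent, while the labels name electroporation, and the age of the mice also differs between the 2 sources. Neither source says whether the 3 samples of a group came from separate animals or cultures, so p-values measure only the spread between these samples, which may be technical. Poly(A) RNA was sequenced and the reads counted on genes came to 25869810 to 28796712 per sample. Mature miRNAs have no poly(A) tail, so these libraries do not measure the mimic itself.

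A miRNA generally acts through its seed, the stretch at positions 2 to 8, which most often pairs with the 3′-UTR of a target mRNA. The target site that the study tested with a reporter lies in a 5′-UTR, and 5′-UTRs were not searched here. The mature mouse sequence of miR-182-5p in RefSeq (GRCm38.p6, chr6:30165962-30165986, minus strand) is shown with its seed in capitals. Below it stands miR-30c-5p, a member of the miR-30 family, because the mature sequence that the study's qRT-PCR methods print under the name miR-182-5p carries the miR-30 seed and not the seed that RefSeq gives for miR-182-5p.
mmu-miR-182-5p: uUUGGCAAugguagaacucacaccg
mmu-miR-30c-5p: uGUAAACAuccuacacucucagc
The mRNA matches are TTGCCAA for miR-182-5p and TGTTTAC for miR-30. The comparison of control and miR182 samples was not designed around chemokines, and it is read here for which members changed and by how much.

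In total, 21 of the 59 members, 16 ligands and 5 receptors, had enough reads to be tested, and 13 members had no read in any sample. Cxcl12, whose product is a ligand of CXCR4 and CXCR7 and retains stem cells and immune cells in their niches, was the most abundant, with 251 ± 3.00 CPM (counts scaled to a common library size; mean ± SD, n = 3) in control samples. Ccl7 followed with 49.8 ± 2.48 CPM. At the other end, Xcr1 had 0.244 ± 0.122 CPM. CPM does not correct for transcript length, and the order at the top depends on it. Per kilobase of the longest annotated transcript, the control level was 62.2 CPM for Ccl7 (801 bases) and 44.7 CPM for Cxcl12 (5627 bases), whereas the shortest coding Cxcl12 transcript (1878 bases) would give 134 CPM per kilobase.

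**Figure D1:**
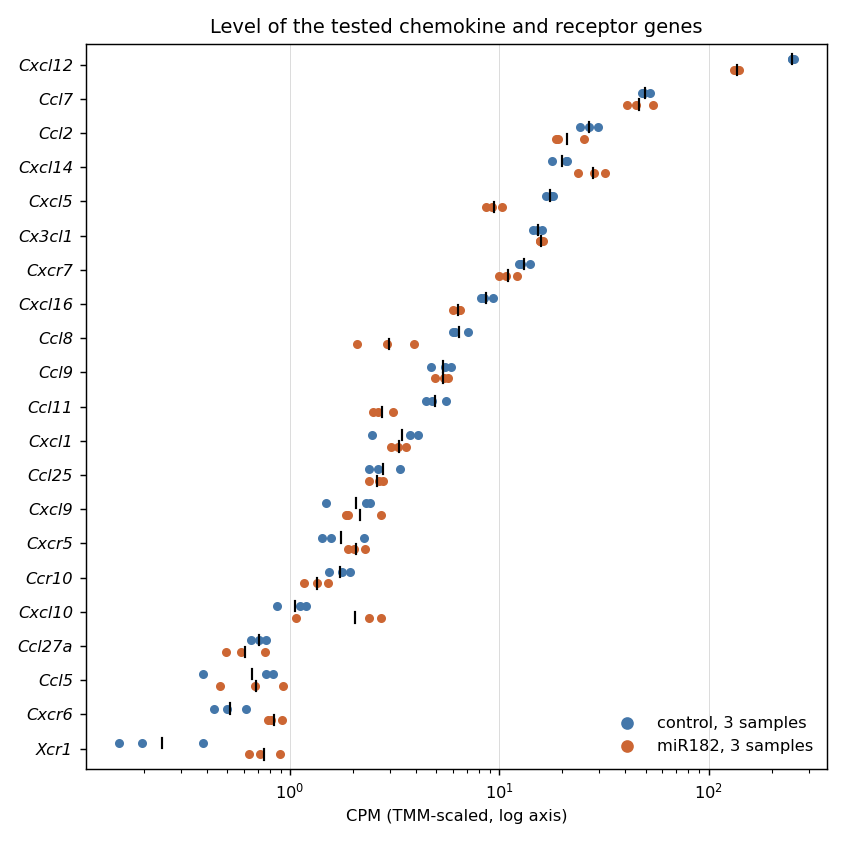
CPM of the 21 tested genes in each of the 6 samples on a log axis, sorted by the control mean, with black bars at the group means. The 3 miR182 samples of Cxcl12, Cxcl5, Ccl8 and Ccl11 lie to the left of every control sample, and those of Xcr1 and Cxcr6 lie to the right.

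With miR182, 4 ligands fell, namely Cxcl12, Cxcl5, Ccl8 and Ccl11, and 3 genes rose, namely the receptors Xcr1 and Cxcr6 and the ligand Cxcl10. A change was called at 1.5-fold or more and a Benjamini-Hochberg adjusted p under 0.05 over all 13117 genes tested with edgeR. By this rule 7 of the 21 tested members were called (33.3%), beside 7.45% of all genes tested. The called-lower share of all genes was 5.48% and the called-higher share was 1.97%. Without the fold cutoff 11 members passed, 7 lower and 4 higher, and here the share over all genes was 46.7%. The lower share without the fold cutoff was 23.5% and the higher share 23.2%. The median log2 fold change was -0.09 over the tested members and -0.004 over all genes tested. The 3 miR182 samples did not overlap the 3 control samples for 10 of the 21 members, 7 below and 3 above, and for 54.8% of all genes tested. In RNA from a whole culture, fewer cells of a type and less RNA per cell cannot be told apart.

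**Figure D2:**
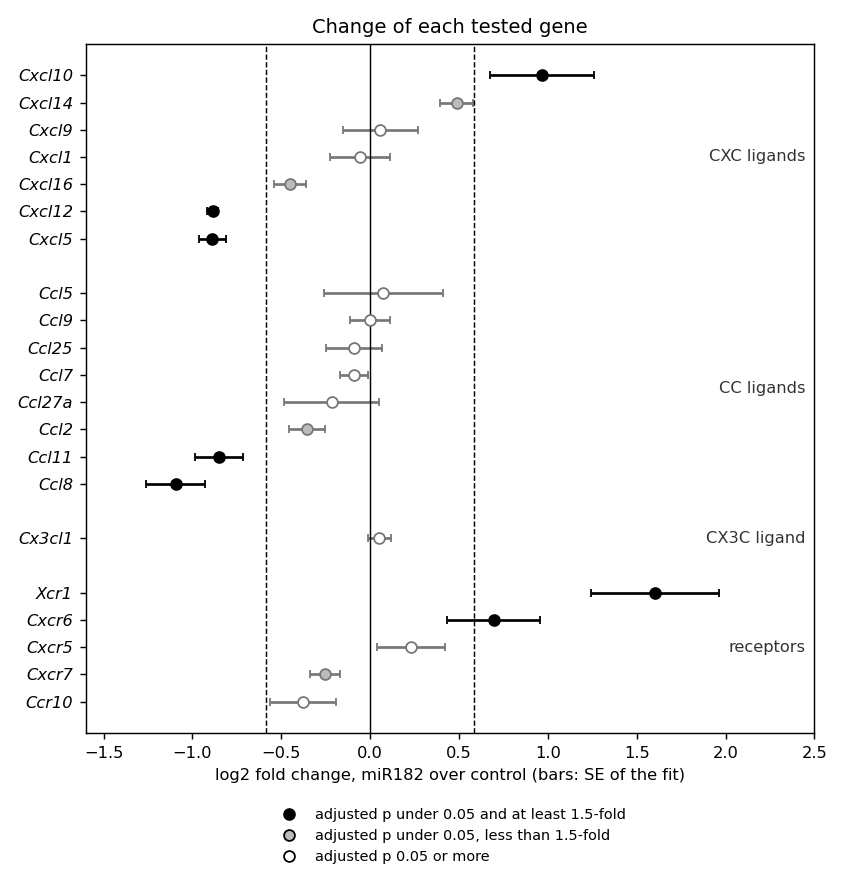
Log2 fold change of miR182 over control for each tested gene, with the standard error of the fit as bars and dashed lines at 1.5-fold. Black points passed both cutoffs, grey points passed only the adjusted p, and white points passed neither. Both CXC and CC ligands appear on the left, and Xcr1 has the largest rise with the widest error.

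Among the CXC ligands, Cxcl12 changed the most in absolute amount. The control samples had 6487, 6527 and 6510 reads and the miR182 samples had 3851, 3589 and 3952. The groups were far apart and each was tight, with a coefficient of variation of 1.19% in control and 2.97% in miR182 samples. The mean fell from 251 ± 3.00 to 136 ± 4.03 CPM, a log2 fold change of -0.89 ± 0.03 (SE; adjusted p = 2.4e-11).

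Cxcl12 took 59.0% to 61.3% of all ligand CPM in control samples and 43.7% to 49.6% in miR182 samples. The summed level of all 38 ligand genes was 414 to 423 CPM in control and 275 to 302 CPM in miR182 samples. Without Cxcl12 the sums were 161, 164 and 173 CPM in control samples and 170, 139 and 142 CPM in miR182 samples. Thus, the sums without Cxcl12 overlapped between the groups, and those with it did not. The receptor genes summed to 17.8, 18.5 and 19.0 CPM in control and to 17.6, 16.9 and 15.7 CPM in miR182 samples.

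**Figure D3:**
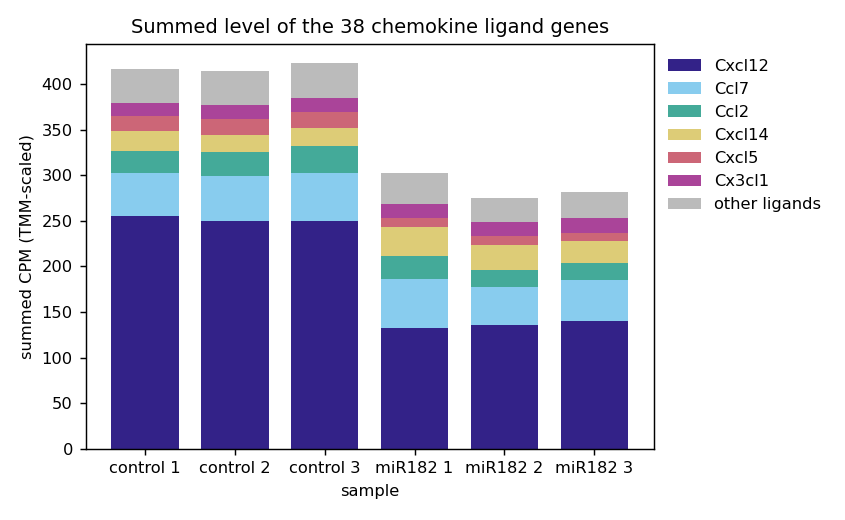
Summed CPM of the 38 ligand genes in each sample, stacked by gene with the 6 most abundant shown and the rest pooled as other ligands. The dark Cxcl12 segment shrinks from 251 to 136 CPM on average. The segments above it sum to 161, 164 and 173 CPM in control samples and to 170, 139 and 142 CPM in miR182 samples.

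Cxcl5, a neutrophil-attracting ligand of CXCR2 with an ELR motif, fell by a similar factor. Control samples had 425, 469 and 459 reads and miR182 samples had 300, 244 and 245. All miR182 samples were lower, and the mean went from 17.4 ± 0.648 to 9.41 ± 0.809 CPM (log2 fold change -0.89 ± 0.07, adjusted p = 3.5e-07). Cxcl1, another ELR ligand of CXCR2, had 63, 107 and 98 reads in control and 105, 80 and 93 in miR182 samples, with a log2 fold change of -0.06 ± 0.17 (adjusted p = 0.81). Its groups overlapped. The 2 genes lie in the same cluster on chromosome 5, Cxcl5 at chr5:90759360-90761624 and Cxcl1 at chr5:90891241-90893115 in GRCm38, both on the plus strand. Cxcr2, which encodes their receptor, had no read in any sample, where 3 reads, the limit that a count of 0 allows, correspond to 0.103 to 0.118 CPM. These limits cover counting error only.

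Cxcl14, a ligand of skin and fat whose receptor is debated, moved the other way but by less than 1.5-fold. Its reads were 538, 467 and 542 in control samples and 929, 744 and 669 in miR182 samples. Every miR182 sample was higher, and the log2 fold change was 0.49 ± 0.09 (adjusted p = 0.0007). Without miR182 replicate 3 it was 0.60 and was called.

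Cxcl16, a membrane-bound ligand of CXCR6 that is also a scavenger receptor, had 9.35, 8.42 and 8.20 CPM in control and 6.51, 5.997 and 6.45 CPM in miR182 samples, with no overlap. Its log2 fold change of -0.45 ± 0.09 passed the p cutoff (adjusted p = 0.0008) but not the fold cutoff. Exons of Cxcl16 share 552 bases with Zmynd15 on the opposite strand, and whether counting used the strand is not given in the sources used here.

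Cxcl10 and Cxcl9 are ligands of CXCR3 that are induced by interferon. Cxcl10 had 22, 29 and 31 reads in control samples and 79, 28 and 67 in miR182 samples. Replicates 1 and 3 of miR182 were above every control sample, while replicate 2 lay within the control range. The mean rose from 1.05 ± 0.169 to 2.05 ± 0.869 CPM (log2 fold change 0.97 ± 0.29, adjusted p = 0.015). This call rested on single samples, since the adjusted p was 0.069 without control replicate 1 and 0.061 without miR182 replicate 1. Cxcl9, its neighbour on chromosome 5, had 38, 63 and 60 reads in control and 79, 50 and 52 in miR182 samples, a log2 fold change of 0.06 ± 0.21 (adjusted p = 0.84). Cxcl10 and the gene Art3 share 133 exon bases on opposite strands.

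A list of 24 interferon-response genes was examined beside these ligands. Of these, 8 were called higher, with Stat2, Rsad2, Ifi44, Usp18, Mx2 and Igtp having the smallest p, and none lower. Over all genes tested, 1.97% were called higher and 5.48% lower. The median log2 fold change of the list was 0.55. Stat2, a transcription factor of the type I interferon response, had 1707, 2726 and 2845 reads in control samples and 6509, 3596 and 3540 in miR182 samples (log2 fold change 0.79 ± 0.19, adjusted p = 0.003). Rsad2, an antiviral enzyme, had 27, 110 and 143 reads in control and 502, 127 and 283 in miR182 samples (1.58 ± 0.42 on the log2 scale, adjusted p = 0.007). The summed CPM of the list was 535, 874 and 922 in control samples and 1614, 872 and 837 in miR182 samples. Thus, control replicate 1 stood low and miR182 replicate 1 stood high, while the other 4 samples lay between 837 and 922. Only 1 gene of the list, Rsad2, was called without miR182 replicate 1, and 2 were called without control replicate 1, Rsad2 and Stat2. With DESeq2 the count was 0, with 3 genes of the list at an unadjusted p under 0.05. Counted gene by gene, 24 of 24 list genes were above every control sample in miR182 replicate 1, 7 in replicate 2 and 8 in replicate 3, Rsad2 among the last. Cxcl10 was above every control sample in replicates 1 and 3. The part of the interferon genes in the Cxcl10 result was not tested.

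**Figure D4:**
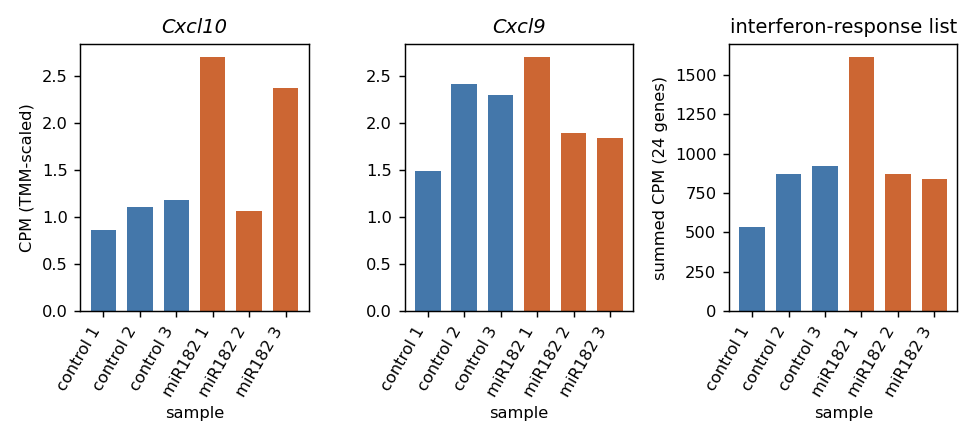
CPM of Cxcl10 and of Cxcl9 and the summed CPM of the 24 interferon-response genes, one bar per sample, blue for control and orange for miR182. Cxcl10 is raised in miR182 replicates 1 and 3, while the list stands out in miR182 replicate 1, at 1614 CPM, and is lowest in control replicate 1, at 535 CPM.

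Promoter windows from RefSeq (GRCm38.p6), 250 bases before to 50 bases after the start, were held for 44 members and for 27025 genes in all. The core of the interferon-stimulated response element (GAAA, then any 2 bases, then GAAA) was searched on both strands and found in 3 members, Cxcl10, Cxcl14 and Ccl19, and in 3.99% of all promoter windows. The kB site of NF-kB, the transcription factor behind most inflammatory chemokine induction, was found in 12 members, among them Cxcl10 and Cxcl1, and in 9.55% of all windows. Matches are shown for the 3 tested CXC ligands that held one, because these ligands differed in their response. Cxcl10 held both motifs, Cxcl14 the response element alone and Cxcl1 the kB site alone. The motif is in capitals, with 8 bases on each side.
Cxcl10 response element: acgctttgGAAAGTGAAActtacctc
Cxcl14 response element: gtccacagGAAACAGAAAagcagcac
Cxcl10 kB site: gtttacagGGGACTTCCCtcgggttg
Cxcl1 kB site: tgtactccGGGAATTTCCctggcccg
Further kB matches of Cxcl10 lie at -159 and -104 and of Cxcl1 at -70, the last 2 overlapping the sites shown. The sites shown start at positions -213, -172, -103 and -71 from the transcription start, in that order. Neither motif was found in the window of Cxcl9. A match is a description of the letters and not a site of binding.

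Among the CC ligands, Ccl8 and Ccl11 fell, Ccl2 moved by less than 1.5-fold and Ccl7 did not pass. These genes lie in 1 cluster on chromosome 11, where Ccl2 (chr11:82035571-82037453), Ccl7 (chr11:82045712-82047525), Ccl11 (chr11:82057823-82062955) and Ccl8 (chr11:82115185-82116799) are read from the plus strand in GRCm38, with Ccl12, a member below the filter, between the last 2. CCL2 and CCL7 attract monocytes through CCR2, CCL8 is in mice a ligand of CCR8, and CCL11 is eotaxin, the eosinophil attractant that acts through CCR3.

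Ccl8 had 156, 184 and 156 reads in control and 114, 55 and 82 in miR182 samples. All miR182 samples were lower, although they varied among themselves by a coefficient of variation of 30.7%. The mean fell from 6.38 ± 0.578 to 2.97 ± 0.910 CPM (log2 fold change -1.09 ± 0.17, adjusted p = 0.0001).

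Ccl11 had 114, 125 and 145 reads in control and 91, 69 and 70 in miR182 samples. The groups did not overlap, and the mean fell from 4.94 ± 0.555 to 2.74 ± 0.335 CPM (log2 fold change -0.85 ± 0.13, adjusted p = 0.00014). Ccl8 and Ccl11 were called in all 6 fits that left out a sample, as were Cxcl12, Cxcl5 and Xcr1.

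Ccl2 had 618, 701 and 769 reads in control and 738, 489 and 539 in miR182 samples. The groups overlapped, as miR182 replicate 1 stood within the control range. The log2 fold change was -0.35 ± 0.10 (adjusted p = 0.011), and leaving out single samples moved it between -0.51 and -0.27, with the p cutoff passed in 4 of 6 such fits. With DESeq2 the adjusted p was 0.076.

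Ccl7 had 1220, 1278 and 1374 reads in control and 1578, 1077 and 1274 in miR182 samples. In CPM, miR182 replicate 1 was above every control sample and replicates 2 and 3 were below every one, with a log2 fold change of -0.09 ± 0.08 (adjusted p = 0.36). It was -0.21 without miR182 replicate 1 (adjusted p = 0.005) and -0.002 without miR182 replicate 2 (adjusted p = 0.98). Ratios within a sample take out differences in depth, as CPM does, but they also carry the variation of Ccl7 itself. The reads of Ccl8 per Ccl7 read were 0.128, 0.144 and 0.114 in control samples and 0.0722, 0.0511 and 0.0644 in miR182 samples. The corresponding ratios of Ccl11 were 0.0934, 0.0978 and 0.106 in control and 0.0577, 0.0641 and 0.0549 in miR182 samples. For Ccl2 they were 0.507, 0.549 and 0.560 in control and 0.468, 0.454 and 0.423 in miR182 samples. All 3 ratios were lower in every miR182 sample, including Ccl2, whose own counts and CPM overlapped. The Ccl2 ratio thus depends on the choice of Ccl7 and is not a fall of Ccl2 corrected for depth. The gene pairs were picked after their values were seen, so no test is given for them.

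**Figure D5:**
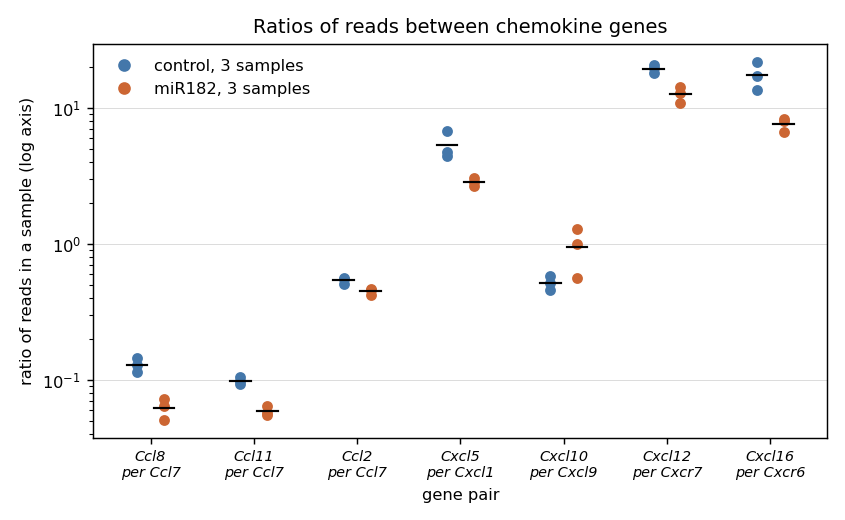
Ratio of reads between 2 chemokine genes in the same sample on a log axis, with points for the 6 samples and black bars at the group means. For 6 of the 7 pairs the miR182 points lie below all control points, and for Cxcl10 per Cxcl9 the groups overlap.

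Of the other CC ligands, Ccl9, a myeloid attractant, had 150, 123 and 144 reads in control and 166, 130 and 154 in miR182 samples (log2 fold change -0.001 ± 0.11, adjusted p = 0.99). Ccl25, Ccl27a and Ccl5 did not pass either, with log2 fold changes of -0.09, -0.22 and 0.07. Ccl25 shares 204 exon bases with Elavl1, and Ccl27a shares 8 with Il11ra1, both on opposite strands. Ccl27a also has near-identical copies on chromosome 4, as do Ccl21a, Ccl21b and Ccl19, so that the counts of these genes are uncertain.

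Cx3cl1, the membrane-bound ligand fractalkine, was the sole CX3C ligand. It had 370, 418 and 397 reads in control and 456, 414 and 455 in miR182 samples. The log2 fold change was 0.05 ± 0.06 (adjusted p = 0.52). Its receptor gene Cx3cr1 had at most 7 reads in any sample.

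Only 5 of the 21 receptor genes had enough reads to be tested. Cxcr7, also called Ackr3, an atypical receptor that scavenges CXCL12, was the most abundant and took 63.2% to 73.6% of all receptor CPM. It had 316, 333 and 365 reads in control and 356, 282 and 281 in miR182 samples. In CPM all miR182 samples were below the control samples, and the log2 fold change of -0.25 ± 0.08 passed the p cutoff alone (adjusted p = 0.025), which held in 3 of the 6 fits that left out a sample. Cxcl12 fell by more than this receptor, with 20.5, 19.6 and 17.8 Cxcl12 reads per Cxcr7 read in control and 10.8, 12.7 and 14.1 in miR182 samples. Cxcr4, the signalling receptor of CXCL12, had 1, 0 and 1 reads in control and 4, 2 and 4 in miR182 samples, which is too few to be tested.

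Xcr1, the receptor of the lymphocyte ligand XCL1 and a known marker of cross-presenting dendritic cells, rose the most of all members on the log2 scale. It had 5, 4 and 10 reads in control and 26, 19 and 18 in miR182 samples. Every miR182 sample was above every control sample, and the mean went from 0.244 ± 0.122 to 0.750 ± 0.129 CPM (log2 fold change 1.60 ± 0.36, adjusted p = 0.0022). With so few control reads it passed the filter on low counts only through the miR182 samples, where it is high, and it is not tested when every sample must have at least 10 reads. Its ligand gene Xcl1 had a single read in all samples. Among the defining markers of dendritic cells, Flt3 and Cd209a were at 0 in every sample and Itgax had 1 read in all, whereas H2-Ab1 had 71 to 94 reads, with every miR182 sample above control in CPM, and Zbtb46 had 149 to 221. Neither passed (log2 fold changes 0.21 ± 0.13 and 0.08 ± 0.12, adjusted p = 0.19 and 0.63). The dendritic list of 5 genes summed to 8.42 to 10.6 CPM in control and 9.35 to 10.7 CPM in miR182 samples.

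Cxcr6, the receptor of CXCL16 and a marker of tissue-resident lymphocytes, lies next to Xcr1 on chromosome 9, with a gap of 40.6 kb. It had 11, 13 and 16 reads in control and 23, 24 and 23 in miR182 samples. The groups did not overlap, and the log2 fold change was 0.69 ± 0.26 (adjusted p = 0.042). This call was weak, because it held in only 1 of the 6 fits that left out a sample, the one without control replicate 3, and the adjusted p was 0.17 with DESeq2 (0.034 to 0.17 over all alternatives). The ligand and receptor moved in opposite directions, so that Cxcl16 had 21.6, 16.9 and 13.4 reads per Cxcr6 read in control and 8.26, 6.58 and 7.91 in miR182 samples.

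Ccr10 and Cxcr5 did not pass. Ccr10, a receptor of skin and mucosal lymphocytes, had a log2 fold change of -0.38 ± 0.19 (adjusted p = 0.11), and all miR182 samples were lower in CPM. Cxcr5, the B cell follicle receptor of CXCL13, had a log2 fold change of 0.23 ± 0.19 (adjusted p = 0.35) and shares 110 exon bases with Bcl9l on the opposite strand. Taking all 10 members that missed the p cutoff, log2 fold changes lay between -0.38 and 0.23 with standard errors of 0.06 to 0.34.

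The other 38 members, 22 ligands and 16 receptors, were below the filter on low counts, and 33 of them had at most 5 reads in every sample. No read was counted on Ccl1, Ccl19, Ccl21a, Ccl21b, Ccl22, Ccl26, Ccl27b, Ccl28, Ccr2, Ccr3, Ccr8, Cxcr2 and Cxcr3. These include genes of known receptors of ligands that changed, CXCR2 for CXCL5, CCR3 for CCL11, CCR8 for mouse CCL8 and CXCR3 for CXCL10. At most 1 read per sample was counted on Ccl12, Ccl3, Ccr1, Ccr6, Cxcr1, Xcl1 and Cxcl17, and at most 2 on Ccr7, Cxcl15 and Ccl4. The largest count was 3 for Ccr4, Cxcl3, Ccl17, Ccl24, Ccl20 and Cxcl2, 4 for Cxcr4, and 5 for Ccrl2 and Cxcl11. It was 7 for Cx3cr1, 9 for Ccl6 and Ccr9, 11 for Cxcl13 and 13 for Ccrl1.

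Cxcl13, the B cell attractant, had 11, 5 and 10 reads in control and 2, 1 and 4 in miR182 samples, and was lower in every miR182 sample. Without the filter its log2 fold change was -1.94 ± 0.61 (adjusted p = 0.018). In the 4 fits without single samples in which it passed the filter, it ranged from -2.53 to -1.63 (adjusted p = 0.0079 to 0.052). Cxcl13 passed there only through the control samples, where it is high, so these fits add no support for a fall. Ccrl1, the atypical receptor Ackr4, had 9, 13 and 10 reads in control and 8, 6 and 6 in miR182 samples, and shares 479 exon bases with Acad11 on the opposite strand. Together with Ccr7 and Cxcr4, these were the 4 of 25 members with a read below the filter whose groups did not overlap, beside 11.0% of all genes below the filter with a read.

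The 3′-UTRs of 57 members were searched for the miR-182-5p match TTGCCAA. It was present in 5 members, Cxcl12, Xcr1, Ccl22, Ccr2 and Ccr9, of which only the first 2 were tested. Cxcl12 fell and Xcr1 rose. Among all genes tested with a 3′-UTR, 13.2% of 12519 held the match. The sites are printed with the match in capitals and 10 bases on each side, since these are the 2 called members that carry one.
Cxcl12 site: ctcagcaaagTTGCCAAcctcgacggg
Xcr1 site: tctgcatttaTTGCCAAgcacataagc
In GRCm38 the Cxcl12 match lies at chr6:117181097-117181103 on the plus strand, at position 4918 of a 3′-UTR of 5188 bases, and is present in 2 of 3 coding transcripts. The Xcr1 match lies at chr9:123853351-123853357 on the minus strand, at position 2322 of 3364. Cxcl5, Ccl8 and Ccl11, the other 3 genes that fell, had no match, nor did Cxcl10 and Cxcr6. The miR-30 match TGTTTAC was present in 3 members, Ccl25, Cxcl17 and Cxcl2, none of which was called, and in 17.3% of all genes tested. These matches are letters in the annotated sequence and show no binding, and 5′-UTRs and coding sequences were not searched.

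Genes that work with chemokines were examined in lists. The counts called in these lists stand beside 7.45% of all genes tested. In the list of atypical receptors and the chemerin system, which shares Ccrl1 and Ccrl2 with the members, 2 of 4 tested genes were called, both lower. The list holds Ackr3 only under that symbol, so the atypical receptor Cxcr7, tested above and not called (log2 fold change -0.25), is left out of these counts. Cmklr1, the chemerin receptor, had 332, 357 and 351 reads in control and 151, 135 and 165 in miR182 samples (13.4 ± 0.318 to 5.38 ± 0.403 CPM, log2 fold change -1.31 ± 0.08). Darc, the decoy receptor Ackr1, had 13, 11 and 10 reads in control and 4, 1 and 1 in miR182 samples (log2 fold change -2.54 ± 0.52, adjusted p = 0.0011), and shares 361 exon bases with Cadm3 on the same strand. It passed the filter only through the control samples, is not tested when every sample must have at least 10 reads, and has no adjusted p in DESeq2. Rarres2, which encodes chemerin, had a log2 fold change of -0.29 ± 0.06 (adjusted p = 0.002), below 1.5-fold. The list's median was -0.86, without Cxcr7.

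Of 19 tested genes of receptor signalling, 2 were called, both lower (list median -0.02), beside 7.45% of all genes tested. Rgs2, a regulator that shortens G-protein signals, had 813, 890 and 845 reads in control and 302, 306 and 322 in miR182 samples (log2 fold change -1.56 ± 0.06). Elmo1, part of the complex that activates Rac downstream of chemokine receptors, had a log2 fold change of -0.66 ± 0.12 (adjusted p = 0.0005), and -0.58 without miR182 replicate 3, below 1.5-fold. Of 14 tested genes that process or present chemokines, 2 were called lower (list median -0.03), both proteases. Mmp2, a matrix metalloproteinase known to cleave CXCL12 and CCL7, fell from 711 ± 14.8 to 400 ± 10.7 CPM (log2 fold change -0.83 ± 0.03). Fap, a serine protease of activated fibroblasts, had a log2 fold change of -0.86 ± 0.11.

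Of 21 tested genes of the NF-kB pathway and its targets, 2 were called higher and 1 lower (list median 0.07). Ptgs2, the inducible cyclooxygenase, had 427, 461 and 484 reads in control and 1542, 1087 and 1071 in miR182 samples (log2 fold change 1.32 ± 0.10). Il6 rose by 0.59 ± 0.16 on the log2 scale (adjusted p = 0.0095), just past 1.5-fold. It was not called without control replicate 1 (0.53), miR182 replicate 1 (0.49) or miR182 replicate 2 (0.57). Limma-voom (0.57) and upper-quartile scaling (0.57) did not call it either. Icam1, an adhesion molecule for leukocytes, had a log2 fold change of -0.71 ± 0.15 (adjusted p = 0.0014). Of 21 tested cytokine and pattern receptors, Tlr2 alone was called, with a log2 fold change of -0.64 ± 0.16 (adjusted p = 0.0052; list median -0.09), a call lost under the fold cutoff without control replicate 2 (-0.53) or miR182 replicate 2 (-0.57). Among chemokine-related genes under other symbols only Cklf was tested, with a log2 fold change of 0.11 ± 0.17 (adjusted p = 0.62), and Pf4 and Ppbp had at most 4 reads.

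The cell types behind the counts were checked with marker lists. Adipocyte genes were abundant, at 11886 to 12649 CPM in control and 8155 to 9226 CPM in miR182 samples for 8 genes, of which Fabp4 was called lower (log2 fold change -0.68 ± 0.04). By adjusted p alone, 6 of the 8 were lower and 1 was higher (list median -0.39). Over all genes tested these shares were 23.5% lower and 23.2% higher. Adipose stromal genes stood at 21001 to 22140 CPM in control and 20121 to 20988 CPM in miR182 samples, with Pdgfra (-0.86 ± 0.03 on the log2 scale) and Cd34 (-1.53 ± 0.08) called lower. By adjusted p alone, 4 of the 7 tested stromal genes were lower and 1 was higher (list median -0.35). Cxcl12 is a known product of such stromal cells. The part of these 2 lists in the chemokine results was not tested.

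Markers of neutrophils, of T and NK cells and of B cells were near 0, and those of macrophages stood higher. Of 11 macrophage genes counted, 7 had at most 10 reads in every sample, Ptprc had at most 4 and Cd163 none, and the list summed to 14.6 to 15.7 CPM in control and 12.5 to 15.8 CPM in miR182 samples, mostly from Csf1r and Cd68. Lyz2 was the only one called (log2 fold change -0.63 ± 0.22, adjusted p = 0.032), and it was not called with DESeq2 (adjusted p = 0.13) or without control replicate 1, control replicate 3, miR182 replicate 2 or miR182 replicate 3 (adjusted p = 0.080 to 0.11). The neutrophil genes summed to at most 0.354 CPM, the T cell and NK cell genes to at most 0.455 CPM and the B cell genes to at most 0.307 CPM in any sample, with Cd3d, Cd3g and Cd8a at 0 in all. Endothelial genes summed to 8.13 to 9.27 CPM in control and 5.09 to 5.92 CPM in miR182 samples. Of the 3 tested, Tek was called lower (-1.31 ± 0.13 on the log2 scale), and the list median was -0.14. Another of the 3 was higher at an unadjusted p under 0.05 only, and Kdr was called higher without control replicate 3. Mesothelial genes summed to 23.4 to 24.5 CPM in control and 35.3 to 46.9 CPM in miR182 samples, nearly all from Krt19. Krt19 was called higher (0.80 ± 0.08 on the log2 scale). The other of the 2 tested mesothelial genes had a negative log2 fold change and did not pass the adjusted p (list median 0.12). Genes of smooth muscle and pericytes summed to 2384 to 2517 CPM in control and 2920 to 3138 CPM in miR182 samples, and none of the 4 tested passed the fold cutoff. By adjusted p alone, 2 of the 4 were higher and 1 was lower (list median 0.09).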

How the data were processed

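Each sample has a list of unnormalized counts by gene symbol, which the authors deposited and which was used without change. The submitters' processing notes name bcl2fastq, TopHat2, HTSeq and mm9, without versions. Whether counting used the strand is not given in the sources used here, so the reads of genes that overlap on opposite strands cannot be told apart. The 5 tally lines that close each list (reads outside genes were 12.7% to 13.0% of uniquely aligned reads) were left out. Reads on genes were 25869810 to 28796712 per sample.

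All genes were fitted with edgeR 4.0.16 in R 4.3.3 (TMM, filterByExpr with a minimum count of 10, quasi-likelihood test, two-sided) on 3 control and 3 miR182 samples with no block, with Benjamini-Hochberg adjustment over 13117 genes. CPM uses TMM-scaled library sizes (factors 0.984 to 1.02). The fit was tested on simulated data. Replicate numbers are shared between the groups in the labels. Same-numbered samples did not deviate together, which does not show whether they were set up together. Exact permutation of 3 and 3 samples gives a two-sided p of 0.1 at the least and was not used.

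The members, the 7 pathway lists, the 10 marker lists and the alternatives were chosen with earlier results of these data known. Members are accounted for by symbol, except that some genes are not reported here. Values in every sample are given for tested members with an adjusted p under 0.05 or at least 1.5-fold and for the 10 members with the highest mean CPM, and from each pathway list at most 6 called genes are named, by smallest p. Marker genes are named in addition, as are Cxcl1, Cxcl9, the gene pairs, the other tested members and members below the filter whose reads are given in full, all chosen after their values were seen.

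Alternatives were DESeq2 1.42.0, limma-voom (limma 3.58.1), edgeR scaled by the size factors of DESeq2 or by the upper quartile, a run with no low-count filter and a run requiring at least 10 reads in every sample, a replicate block, leaving out each sample, and a fold cutoff of 2 or none. Positions come from GENCODE M21 on GRCm38, not from mm9, with 57 members matched by symbol and 2 by an older symbol (Cxcr7 and Ccrl1). Sequences come from RefSeq (GRCm38.p6) and, for 3′-UTRs, from GENCODE transcripts, pooling all coding transcripts of a gene. Python 3.11.15 was used for tables and figures.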

Additional observations from a re-analysis of the deposited data

How the results depend on the processing

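Of the 7 called members, Cxcl12, Cxcl5, Ccl8, Ccl11 and Xcr1 kept their call in every alternative at the 1.5-fold cutoff in which they were tested. Xcr1 was not tested with at least 10 reads required in every sample. Without a fold cutoff 11 members, 6124 genes of all and 64 genes of the pathway lists passed, and at 2-fold 2 members (Ccl8 and Xcr1), 280 genes of all and 9 of the lists, beside 7, 977 and 18 at 1.5-fold. Leaving out each sample in turn gave 5 to 8 members, 902 to 1011 genes of all and 11 to 21 genes of the lists. DESeq2 called 6 members and 9 genes of the lists, and the 11 of the lists without control replicate 1 were the lowest of the left-out fits. Cxcl10 lost its call without control replicate 1 or miR182 replicate 1, and its log2 fold change ranged from 0.72 to 1.27 over the alternatives. Cxcr6 lost its call with DESeq2, without the filter (adjusted p = 0.068) and without each sample but control replicate 3. Ccl9 had log2 fold changes of 0.00056 with DESeq2, 0.0041 with limma-voom, 0.0014 with DESeq2 size factors, 0.00036 without the filter and -0.088 to 0.070 when single samples were left out, beside -0.001 in the reported fit, none of them past a cutoff. The cause was not tested for these changes. The median log2 fold change of all genes moved from -0.004 (TMM) to -0.002 and -0.016 under the other scalings.

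With the replicate number as a block, 6 members, 925 genes of all and 11 genes of the lists were called. Cxcr6 lost its call (adjusted p = 0.061), as did Il6, and of the 8 interferon genes 2 were called, Rsad2 and Stat2. Correlations of the deviations from group means were -0.185, -0.044 and -0.079 for samples of the same number and -0.056 to 0.119 for others. No sample correlated best with its own number. These values are all small and do not show whether same-numbered samples were set up together. Counting error limits Xcr1, Cxcr6 and the genes below the filter, where a few reads decide a value.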
